A study of Mus musculus with 21 samples.

Results

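Irg1, Slc13a3, Slc25a1, Slc25a10 and Slc25a11 are 5 mouse genes for the synthesis of itaconate and the carriage of dicarboxylates and citrate across membranes. They were taken from the count table by gene name, where Irg1 is the older symbol of Acod1, and make up 5 of its 47069 genes. All 5 passed the filter on low counts, which left 14473 genes for testing. The 3 groups of C57BL/6 macrophages without a mutation (wild type) received no cytokine, IL-33 or IL-4. The 2 groups labelled ST2-/-, a deletion of the IL-33 receptor chain ST2, and the 2 groups labelled Cx3cr1CRExGata3fl/fl, in which Cre under Cx3cr1 is meant to remove Gata3 from cells that use that promoter, received no cytokine or IL-33. Every group held 3 libraries of macrophages grown from bone marrow in medium conditioned with M-CSF for 5 days and then kept with or without cytokine for 36 h. Age, sex and whether the 3 libraries came from separate mice were not given in the sources used here, so p-values here reflect differences among libraries that may be technical repeats.

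Irg1 encodes the mitochondrial enzyme that removes a carboxyl group from cis-aconitate, an intermediate of the TCA cycle, and releases itaconate. Activated macrophages are known for making itaconate, which inhibits succinate dehydrogenase and modifies cysteines of proteins such as KEAP1. Slc13a3 encodes a sodium-coupled transporter of the plasma membrane that takes up succinate, 2-oxoglutarate and related dicarboxylates, itaconate among them. The other 3 genes encode carriers of the inner mitochondrial membrane: Slc25a1 exchanges citrate for malate, Slc25a10 exchanges malate or succinate for phosphate, and Slc25a11 exchanges 2-oxoglutarate for malate.

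Irg1 (ENSMUSG00000022126) lies on the plus strand at chr14:103046977-103056573 of GRCm38 and has 5 merged exon blocks in GENCODE M21. Slc13a3 (ENSMUSG00000018459) lies on the minus strand at chr2:165405028-165473230 with 13 exon blocks. Both genes rose under IL-33, while under IL-4 Slc13a3 was called and the call of Irg1 depended on the settings of the fit. For that reason the 215 bases upstream of these 2 genes are shown. They are the RefSeq promoter windows of GRCm38.p6, chr14:103046762-103046976 on the plus strand and chr2:165473233-165473447 on the minus strand, from 250 to 36 bases before the RefSeq start. Capitals mark every match, on either strand, to a form of the NF-kB motif, GGG and CC with any 5 bases between them, or to the E-box CACGTG.
Irg1: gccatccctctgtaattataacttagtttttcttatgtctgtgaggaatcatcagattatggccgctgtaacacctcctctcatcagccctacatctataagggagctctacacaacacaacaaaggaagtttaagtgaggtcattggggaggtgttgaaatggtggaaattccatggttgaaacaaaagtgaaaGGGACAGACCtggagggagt
Slc13a3: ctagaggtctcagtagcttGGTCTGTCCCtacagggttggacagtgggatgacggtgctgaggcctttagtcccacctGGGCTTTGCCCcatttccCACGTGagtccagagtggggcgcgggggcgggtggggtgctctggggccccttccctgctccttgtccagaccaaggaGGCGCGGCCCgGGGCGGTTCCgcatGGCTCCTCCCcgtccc

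The Irg1 window held 1 match to the NF-kB form, starting 55 bases before the RefSeq start. The Slc13a3 window held 6, of which 2 overlap in the run GGGCTTTGCCC, and 1 match to CACGTG, 154 bases before the start. The NF-kB form was present at least once in 40.4% of 32817 windows of the same length and CACGTG in 4.84%. That share is no background for a count of 6, which was not compared with windows of similar GC content. The window of Slc25a1 also held matches to both motifs. The Irg1 window had a GC content of 43.3% and that of Slc13a3 67.0%, on either side of the median of 51.6%. Neither window held the TATA box TATAAA (9.75% of windows), the AP-1 motif TGANTCA (5.98%), the C/EBP motif TTGCNNAA (8.61%) or the GATA motif GATAAG (5.77%) on either strand. Nor did they hold a STAT motif, TTC and GAA with any 3 (6.13%) or any 4 bases (5.08%) between them, or GAAA, any 2 bases and GAAA, the core of the interferon-stimulated response element (2.57%). These searches describe letters only, and the motifs were picked with expression results known. The NF-kB form leaves 5 bases free, so a match to it does not show a site that NF-kB binds. The windows end 36 bases before the RefSeq start, so the search cannot tell whether a TATA box lies nearer to it.

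Slc25a1 (ENSMUSG00000003528) lies on the minus strand at chr16:17925223-17928219, Slc25a10 (ENSMUSG00000025792) on the plus strand at chr11:120491840-120499187 and Slc25a11 (ENSMUSG00000014606) on the minus strand at chr11:70644196-70647479. Slc25a10 shares 228 exon bases with the antisense gene Gm11788, and Slc25a11 shares 189 with Rnf167 on the opposite strand. Whether reads were counted by strand was not given in the sources used here, so those reads could not be assigned with certainty. Gm11788 held between 1 and 10 counts in each group, while Rnf167 went from 40.4 to 46.4 CPM without cytokine to 30.2 to 32.9 CPM under IL-33 in wild-type libraries.

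The libraries held 32.6 to 48.7 M (mega) counted reads, and levels are given as CPM, counts per 1 M reads scaled by edgeR's library factors. Reads of Il1rl1, the gene of ST2, were not lower in unstimulated ST2-/- labelled cells (17.4 ± 2.95 CPM, SD, n = 3) than in wild-type cells (15.7 ± 1.45, n = 3), and Gata3 held at most 37 counts in any group. Groups labelled Cx3cr1CRExGata3fl/fl held the most Gata3 counts, 32 untreated and 37 with IL-33, against 17 to 23 in wild-type groups and 4 in each ST2-/- group. Gene-level counts therefore do not check either deletion, and both genotypes are given as labelled. Xist stood at 277 to 376 CPM in the 6 libraries labelled Cx3cr1CRExGata3fl/fl and at most 0.0462 CPM in the other 15, so genotype and sex cannot be told apart where those libraries are set against wild type. The 7 macrophage markers summed to 13848 to 39877 CPM in every library. Lyz2 held most of each sum, with group means of 9890 to 29655 CPM. Group means were 858 to 2183 CPM for Adgre1 and 2165 to 3788 CPM for Csf1r.

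IL-33 raised Irg1 and Slc13a3 in wild-type cells from low levels, raised Slc25a1 by 20.9% and gave no called change of Slc25a10 or Slc25a11. Irg1 stood at 4.40, 2.98 and 2.53 CPM in the 3 wild-type libraries without cytokine and at 76.5, 66.9 and 75.8 CPM in those with IL-33. Every IL-33 library lay far above every untreated one. The fold was 22.2, a log2 change of 4.47 ± 0.29 (SE, adjusted p = 3.7e-11, edgeR quasi-likelihood test with Benjamini-Hochberg adjustment), the 61st largest rise among tested genes.

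Slc13a3, the plasma membrane transporter, was low without cytokine, at 0.765, 0.571 and 0.351 CPM. With IL-33 it stood at 48.9, 83.0 and 81.9 CPM. The groups did not overlap, and the lowest IL-33 library was replicate 1. The rise was 127-fold, a log2 change of 6.99 ± 0.32 (adjusted p = 1.5e-13, edgeR), the 22nd largest among tested genes. Slc13a3 had a lower level than Irg1 in every untreated wild-type library and a higher one in IL-33 replicates 2 and 3, on a scale that does not account for gene length.

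**Figure D1:**
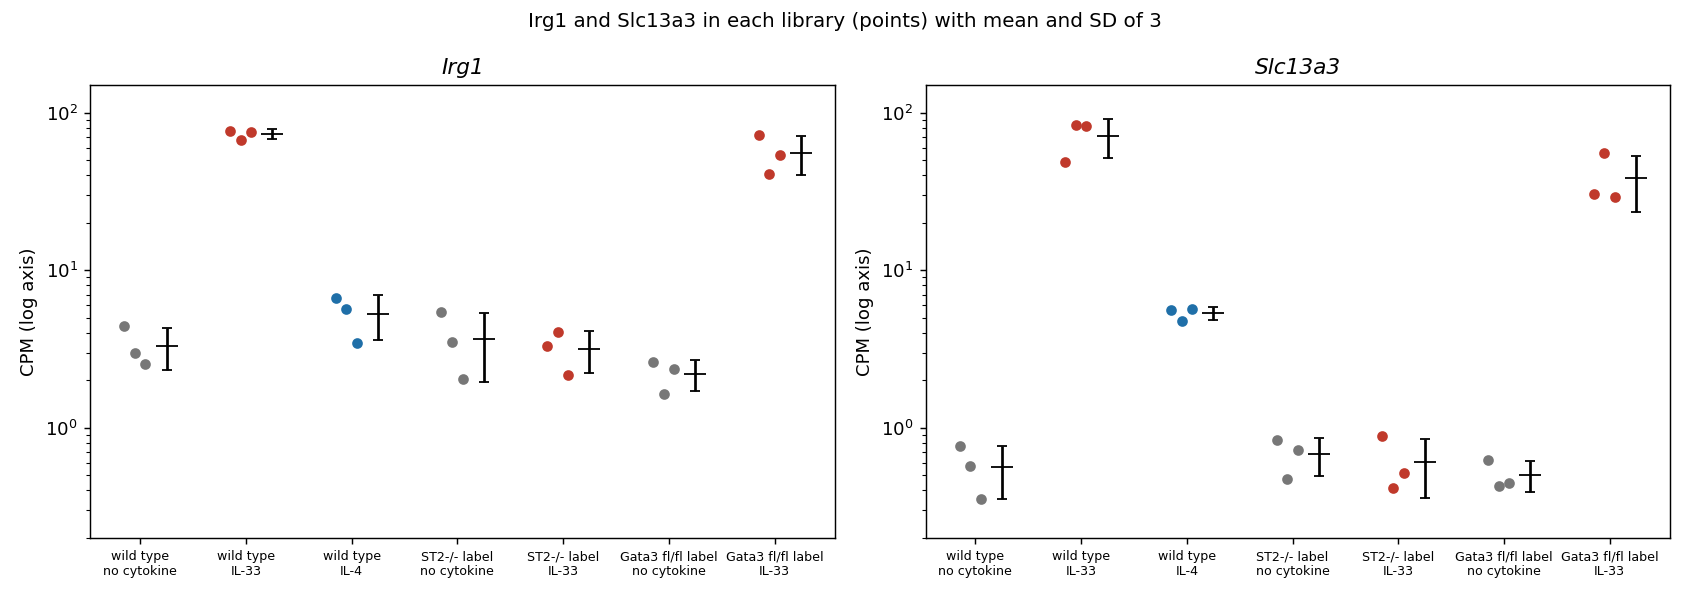
Levels of Irg1 and Slc13a3 in each of 21 libraries, in CPM on a log axis, by group of genotype label and cytokine (points are libraries, horizontal ticks with bars the mean ± SD of 3, and "Gata3 fl/fl label" the cells labelled Cx3cr1CRExGata3fl/fl). Both genes are high in 2 groups given IL-33, and under IL-4 Slc13a3 lies clear of its untreated libraries while Irg1 does not.

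The citrate carrier gene Slc25a1 stood at 86.0, 90.8 and 90.4 CPM without cytokine and at 104, 105 and 114 CPM with IL-33 in wild-type cells. The groups did not overlap, and the rise was 1.21-fold (log2 change 0.27 ± 0.05, adjusted p = 0.000394, edgeR). Slc25a10 stood at 64.4, 56.3 and 65.0 CPM without cytokine and 61.6, 62.1 and 60.3 CPM with IL-33, within the spread of the untreated libraries. Its log2 difference was -0.01 ± 0.07 (adjusted p = 0.910). Slc25a11 stood at 142, 155 and 157 CPM without and 154, 156 and 157 CPM with IL-33, a log2 difference of 0.04 ± 0.05 (adjusted p = 0.522). In all, 3 of 5 genes were called, each of them higher and without overlap, where 35.4% of tested genes were called in either direction, 18.5% were called higher and 46.4% did not overlap.

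**Figure D2:**
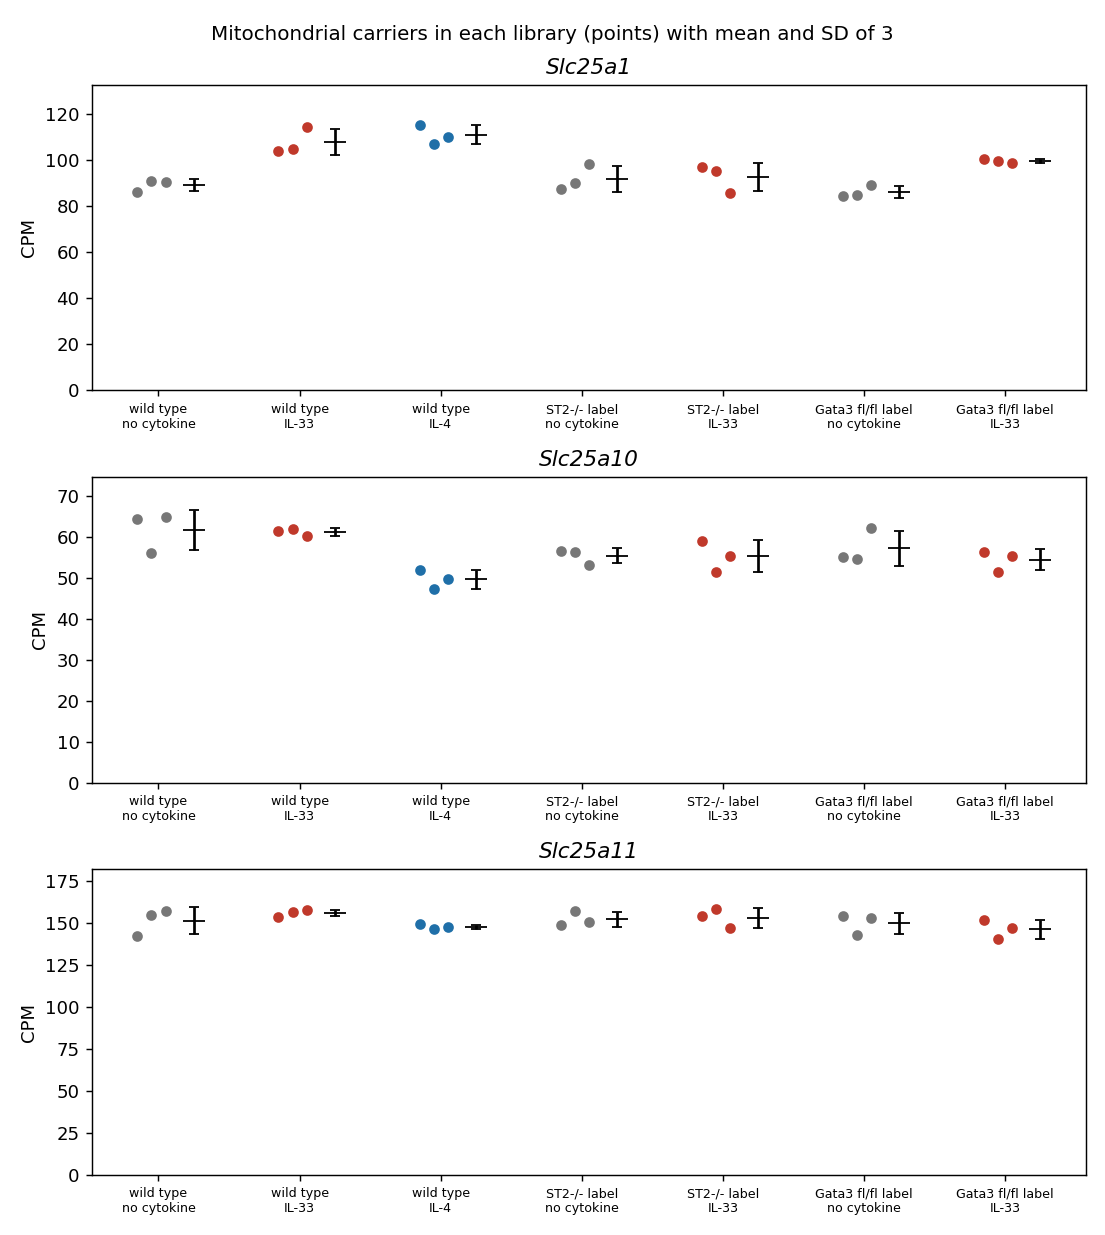
Levels of Slc25a1, Slc25a10 and Slc25a11 in each of 21 libraries, in CPM on a linear axis starting at 0, by group (points are libraries, horizontal ticks with bars the mean ± SD of 3). The highest group mean was 1.29 times the lowest for Slc25a1, 1.24 times for Slc25a10 and 1.07 times for Slc25a11.

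IL-4 gave another pattern: Slc13a3 rose without a called rise of Irg1, Slc25a1 rose and Slc25a10 fell. Irg1 stood at 6.64, 5.71 and 3.44 CPM under IL-4, and replicate 3 lay within the untreated range. Its log2 difference from no cytokine was 0.66 ± 0.31 (adjusted p = 0.0851, edgeR). This value passed the threshold when untreated replicate 1 was left out (0.89, adjusted p = 0.0432) or IL-4 replicate 3 was left out (0.90, adjusted p = 0.0249), and when no filter on low counts was used (0.64, adjusted p = 9.6e-07). It also passed with the replicate number as a block, so the call of Irg1 under IL-4 depended on the settings.

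Slc13a3 stood at 5.59, 4.74 and 5.68 CPM under IL-4, above all untreated libraries. The rise was 9.53-fold, a log2 change of 3.25 ± 0.36 (adjusted p = 8.5e-08, edgeR). Slc25a1 stood at 115, 107 and 110 CPM, 1.25-fold above no cytokine (log2 change 0.32 ± 0.05, adjusted p = 4.7e-05). Slc25a10 stood at 52.0, 47.4 and 49.7 CPM, below all untreated libraries, and its log2 value fell by 0.32 ± 0.07 (adjusted p = 0.000358). Slc25a11 stood at 149, 146 and 147 CPM and was not called (log2 difference -0.04 ± 0.05, adjusted p = 0.571). The called genes were 3 of 5, 2 higher and 1 lower, where 47.6% of tested genes were called, 25.1% higher and 22.5% lower, and 56.1% did not overlap.

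IL-33 and IL-4 libraries were also compared directly in wild-type cells. Irg1 was 14.1-fold and Slc13a3 13.4-fold higher under IL-33 (log2 differences 3.82 ± 0.27 and 3.74 ± 0.24, adjusted p = 1.0e-10 and 1.8e-11, edgeR). Slc25a10 was 1.23-fold higher under IL-33 (log2 difference 0.30 ± 0.07, adjusted p = 0.000693). Slc25a1 did not differ beyond the spread (-0.04 ± 0.05, adjusted p = 0.579), nor did the test call Slc25a11 (0.08 ± 0.05, adjusted p = 0.199), although its libraries did not overlap. All 3 called genes were higher under IL-33, beside 39.9% of tested genes called, 19.2% called higher and 49% without overlap.

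Reads of Slc13a3 per read of Irg1 show how the 2 genes shifted relative to each other. Without cytokine there were 0.174, 0.191 and 0.139 in wild-type cells. Under IL-33 there were 0.639, 1.24 and 1.08, and under IL-4 there were 0.843, 0.831 and 1.65, so both cytokines gave ratios above every untreated wild-type library. In both genotypes that responded to IL-33, replicate 2 had the lowest Irg1 level and the highest Slc13a3 level of its group.

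In cells labelled ST2-/-, none of the 5 genes was called after IL-33. Irg1 stood at 5.46, 3.49 and 2.04 CPM without and 3.28, 4.05 and 2.17 CPM with IL-33. Slc13a3 stood at 0.833, 0.474 and 0.722 CPM without and 0.880, 0.416 and 0.515 CPM with IL-33. Both sets overlapped, with log2 differences of -0.20 ± 0.31 and -0.14 ± 0.47 (both adjusted p = 1, edgeR). The other 3 genes had log2 differences between -0.0012 and 0.01, with SEs of at most 0.07. Of the 14473 genes that passed the filter, 0% were called in this comparison by edgeR, DESeq2 or limma-voom, 6.96% did not overlap, and 507 had an unadjusted p under 0.05 in edgeR. With no filter, edgeR called 70 genes.

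The difference between the ST2-/- and wild-type responses to IL-33 was tested as an interaction. It was -4.68 ± 0.42 for Irg1 and -7.14 ± 0.63 for Slc13a3 on the log2 scale (adjusted p = 3.0e-08 and 2.1e-08, edgeR). For Slc25a1 it was -0.26 ± 0.08 (adjusted p = 0.0164). This last call was lost with only the compared groups in the fit (adjusted p = 0.0501) and when untreated wild-type replicate 1, wild-type IL-33 replicate 3, or replicate 3 of either ST2-/- group was left out (adjusted p = 0.0546 to 0.0651). Slc25a10 (0.01 ± 0.09) and Slc25a11 (-0.04 ± 0.07) were not called. So 3 of 5 genes were called, all towards a smaller response, where 22.7% of tested genes were called and 12.1% were called lower.

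With IL-33 present, the 2 genotypes were 22.9-fold apart for Irg1 and 117-fold apart for Slc13a3, ST2-/- libraries being lower (adjusted p = 3.3e-11 and 1.5e-13, edgeR). Slc25a1 was 1.16-fold lower, at 96.9, 95.3 and 85.5 CPM (log2 difference -0.22 ± 0.05, adjusted p = 0.00318). Slc25a10 stood at 59.2, 51.5 and 55.5 CPM, below all wild-type IL-33 libraries, but was not called (-0.15 ± 0.07, adjusted p = 0.0851). It was called when ST2-/- IL-33 replicate 1 was left out (-0.19, adjusted p = 0.0409). The 3 called genes stand beside 37% of tested genes called and 19.1% called lower, and the 4 without overlap beside 44.9%. Without cytokine none of the 5 was called between ST2-/- and wild-type cells, where 1.35% of tested genes were, and all 5 overlapped, where 20.7% of genes did not. The largest of these differences relative to its error was that of Slc25a10 (-0.16 ± 0.07, adjusted p = 0.249).

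**Figure D3:**
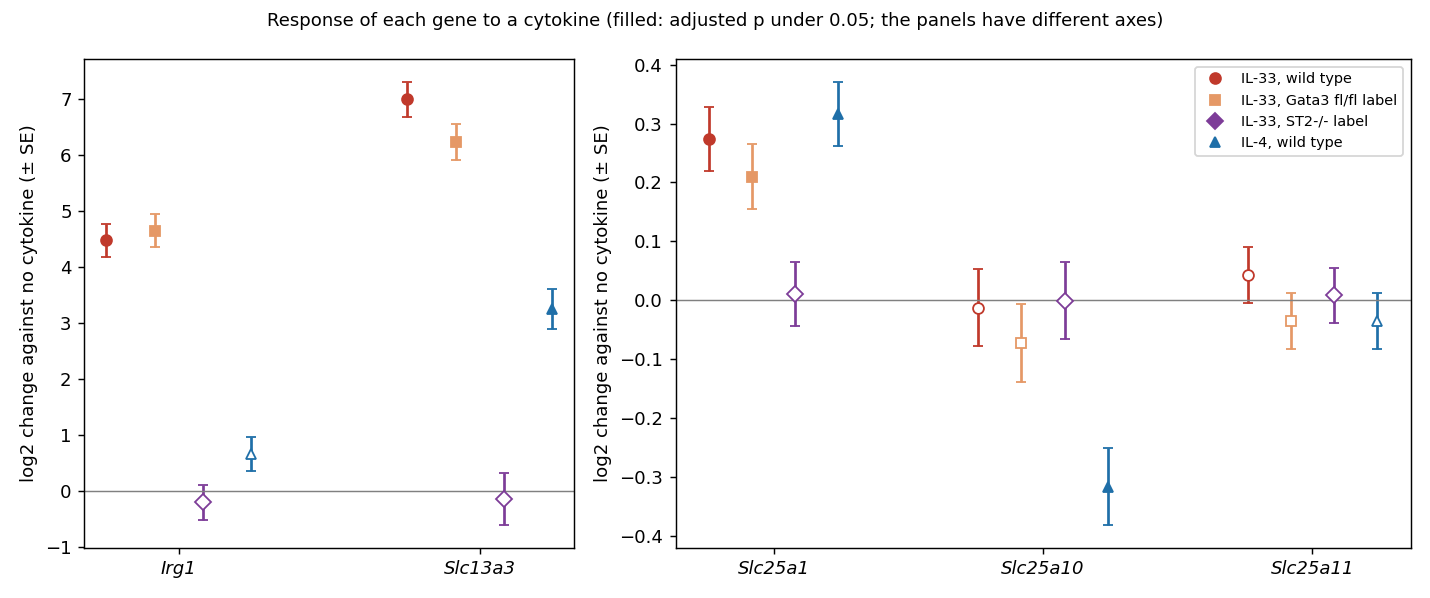
Log2 response of each of the 5 genes to IL-33 in 3 genotypes and to IL-4 in wild-type cells, with bars of 1 SE from edgeR (filled points were called, and "Gata3 fl/fl label" is Cx3cr1CRExGata3fl/fl). The left panel holds Irg1 and Slc13a3 and the right panel the 3 mitochondrial carriers on a narrower axis, where the ST2-/- points lie near 0.

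Cells labelled Cx3cr1CRExGata3fl/fl responded to IL-33 in the same direction as wild-type cells. Irg1 went from 2.61, 1.65 and 2.34 CPM to 71.7, 40.8 and 54.0 CPM, a 25.1-fold rise (log2 change 4.65 ± 0.29, adjusted p = 4.1e-11, edgeR). Slc13a3 went from 0.628, 0.429 and 0.444 CPM to 30.2, 55.5 and 29.1 CPM, a 75.0-fold rise (log2 change 6.23 ± 0.32, adjusted p = 1.0e-12). Neither gene's groups overlapped. Slc25a1 rose from 84.3, 85.1 and 89.2 CPM to 101, 99.5 and 98.9 CPM, 1.16-fold (log2 change 0.21 ± 0.05, adjusted p = 0.00469).

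Slc25a10 stood at 55.1, 54.6 and 62.3 CPM without and 56.5, 51.6 and 55.4 CPM with IL-33 in these cells (log2 difference -0.07 ± 0.07, adjusted p = 0.438). Slc25a11 stood at 154, 143 and 153 CPM without and 151, 140 and 147 CPM with IL-33 (-0.04 ± 0.05, adjusted p = 0.620). Both sets overlapped. Again 3 of 5 genes were called, each higher, where 33.4% of tested genes were called, 17.1% were called higher and 45% did not overlap. None of the 5 responses was called as different from the wild-type response, where 1.22% of genes were. For Irg1 that difference was 0.18 ± 0.41 and for Slc13a3 -0.76 ± 0.56 (adjusted p = 0.906 and 0.604), errors that leave room for sizeable differences.

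The level under IL-33 was nonetheless lower for Slc13a3 in cells labelled Cx3cr1CRExGata3fl/fl than in wild-type cells. The difference was 1.86-fold (log2 -0.90 ± 0.21, adjusted p = 0.00567, edgeR), while libraries overlapped, replicate 2 of the labelled cells lying above replicate 1 of the wild type. Without replicate 3 of the labelled group given IL-33 it was -0.73 and no longer called (adjusted p = 0.0510). Irg1 was not called (-0.40 ± 0.23, adjusted p = 0.303). Slc25a1, Slc25a10 and Slc25a11 were lower in every labelled library than in every wild-type one, by 0.11, 0.17 and 0.09 on the log2 scale, and none was called (adjusted p = 0.216, 0.102 and 0.232). The 1 called gene of 5 stands beside 11.3% of tested genes called and 5.85% called lower, and the 3 without overlap beside 28.1%. Without cytokine none of the 5 was called between these genotypes, where 9.85% of genes were, and all 5 overlapped, where 31% of genes did not.

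Ordered by group mean, Irg1 was highest under IL-33 in wild-type cells (73.1 ± 5.33 CPM, SD, n = 3), then in cells labelled Cx3cr1CRExGata3fl/fl (55.5 ± 15.5). These neighbours overlapped. The other 5 groups lay between 2.20 and 5.26 CPM, and each overlapped its neighbour in the order. Slc13a3 had the same leading groups (71.2 ± 19.4 and 38.3 ± 14.9 CPM), followed by IL-4 (5.34 ± 0.520 CPM) clear of both neighbours, and 4 groups between 0.500 and 0.676 CPM that overlapped. Slc25a1 was highest under IL-4 (111 ± 4.11 CPM) and lowest in untreated cells labelled Cx3cr1CRExGata3fl/fl (86.2 ± 2.63 CPM). Slc25a10 was lowest under IL-4 (49.7 ± 2.31 CPM). Slc25a11 kept within 146 and 156 CPM in all 7 group means.

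Per kilobase of merged exon, the 3 carriers stood above the other genes in untreated wild-type cells. Slc25a11 had 71.3, Slc25a1 41.2 and Slc25a10 17.9 CPM per kilobase, against 1.26 for Irg1 and 0.108 for Slc13a3. Under IL-33, Irg1 reached 27.9 and Slc13a3 13.7 CPM per kilobase. Irg1 then lay between Slc25a10 (17.8) and Slc25a1 (49.8), and its lowest library (25.5) was above the highest of Slc25a10 (18.0). Slc13a3 stayed below Slc25a10 in all 3 libraries.

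Marker lists of other cell types moved in both directions under IL-33. Of 11 tested neutrophil markers, 8 rose in wild-type cells, where 18.5% of all tested genes were called higher, and the summed level of the list went from 122 to 135 CPM to 380 to 525 CPM. Without Mmp8 the sums were 112 to 123 and 230 to 295 CPM. Csf3r made up most of these, with means of 93.2 ± 5.63 CPM without cytokine and 216 ± 32.3 CPM with IL-33. Ly6g, a defining neutrophil marker, held 0 counts without cytokine and 2 with IL-33 over 3 libraries. In cells labelled Cx3cr1CRExGata3fl/fl the sum went from 172 to 194 CPM to 454 to 534 CPM, and in ST2-/- cells it was 136 to 158 without and 143 to 153 CPM with IL-33. Monocyte markers summed to 227 to 256 CPM without and 364 to 424 CPM with IL-33 in wild-type cells, where 4 of 5 rose. Without Vcan these sums were 224 to 252 and 309 to 331 CPM. The 5 dendritic cell markers summed to 2.54 to 3.61 CPM without and 5.53 to 8.57 CPM with IL-33, and 2 rose. Of 5 tested T cell and innate lymphoid markers none rose and 2 fell, and the summed level of the 6 listed went from 175 to 203 CPM to 144 to 160 CPM. Of 6 tested mast cell and basophil markers 3 rose and 1 fell, and the summed level of the 7 listed went from 7.78 to 11.5 CPM to 3.41 to 6.48 CPM. Macrophage markers, 4 of 7 higher and 1 lower, summed to 26971 to 29862 CPM without and 35935 to 39877 CPM with IL-33. Lyz2 made up most of these sums, with means of 21331 ± 1340 CPM without and 29655 ± 1601 CPM with IL-33.

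Marker lists also moved under IL-4, beside the changes of Slc13a3, Slc25a1 and Slc25a10. Neutrophil markers summed to 206 to 217 CPM, with 3 of 11 higher and 6 lower. Csf3r alone had a mean of 178 ± 4.38 CPM, against 93.2 ± 5.63 CPM untreated. T cell and innate lymphoid markers summed to 334 to 346 CPM, with 1 of 5 higher and 1 lower. Monocyte markers summed to 101 to 111 CPM, with 3 of 5 lower, and macrophage markers to 13848 to 15392 CPM, with 2 of 7 higher and 5 lower. The macrophage sum was mostly Lyz2, with a mean of 9890 ± 851 CPM. Dendritic cell markers summed to 4.26 to 5.56 CPM, with 1 of 5 higher, and mast cell and basophil markers to 2.25 to 3.26 CPM, with 1 of 6 lower. Under IL-4, 25.1% of all tested genes were called higher and 22.5% lower. The part of such cells in the levels of the 5 genes was not tested. In these bulk samples a change in the number of cells of a type and a change of RNA per cell cannot be told apart.

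The genes with profiles nearest to each of the 2 responding members were found by the root mean square log2 difference over all 21 libraries after centring each gene. The nearest to Irg1 were Met, the receptor of hepatocyte growth factor (0.58), Vcan, the proteoglycan versican (0.61), Dnmt3l, a cofactor of DNA methyltransferases (0.63), Ptgs2, the inducible cyclooxygenase (0.64), and Mmp8, a collagenase of neutrophil granules (0.65). Ptgs2 went from 0.615 to 7.58 CPM and Mmp8 from 11.7 to 189 CPM under IL-33 in wild-type group means. Met went from 0.396 to 4.72 CPM and Dnmt3l from 0 to 0.809 CPM. At such low levels the prior count of 2 added before the log shapes the distance. Vcan and Mmp8 were also on the monocyte and neutrophil marker lists.

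The nearest profiles to Slc13a3 were Rasgrp1, an activator of Ras (0.75), the chemokine gene Ccl12 (0.90), Flrt3, a cell surface adhesion protein (0.96), Nrg1, a ligand of ErbB receptors (1.02), and the chemokine gene Ccl7 (1.12). The wild-type group means of Rasgrp1 were 0.158 CPM untreated, 14.0 CPM for IL-33 and 3.40 CPM for IL-4. Like Slc13a3 it had an intermediate level under IL-4. Untreated wild-type means were 0 CPM for Nrg1 and 0.0612 CPM for Flrt3, so their distances also depend on the prior count. Irg1 and Slc13a3 themselves were 1.16 apart, with 85 genes nearer to Irg1 and 6 nearer to Slc13a3. These distances are a description, since all 21 libraries share the same groups.

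**Figure D4:**
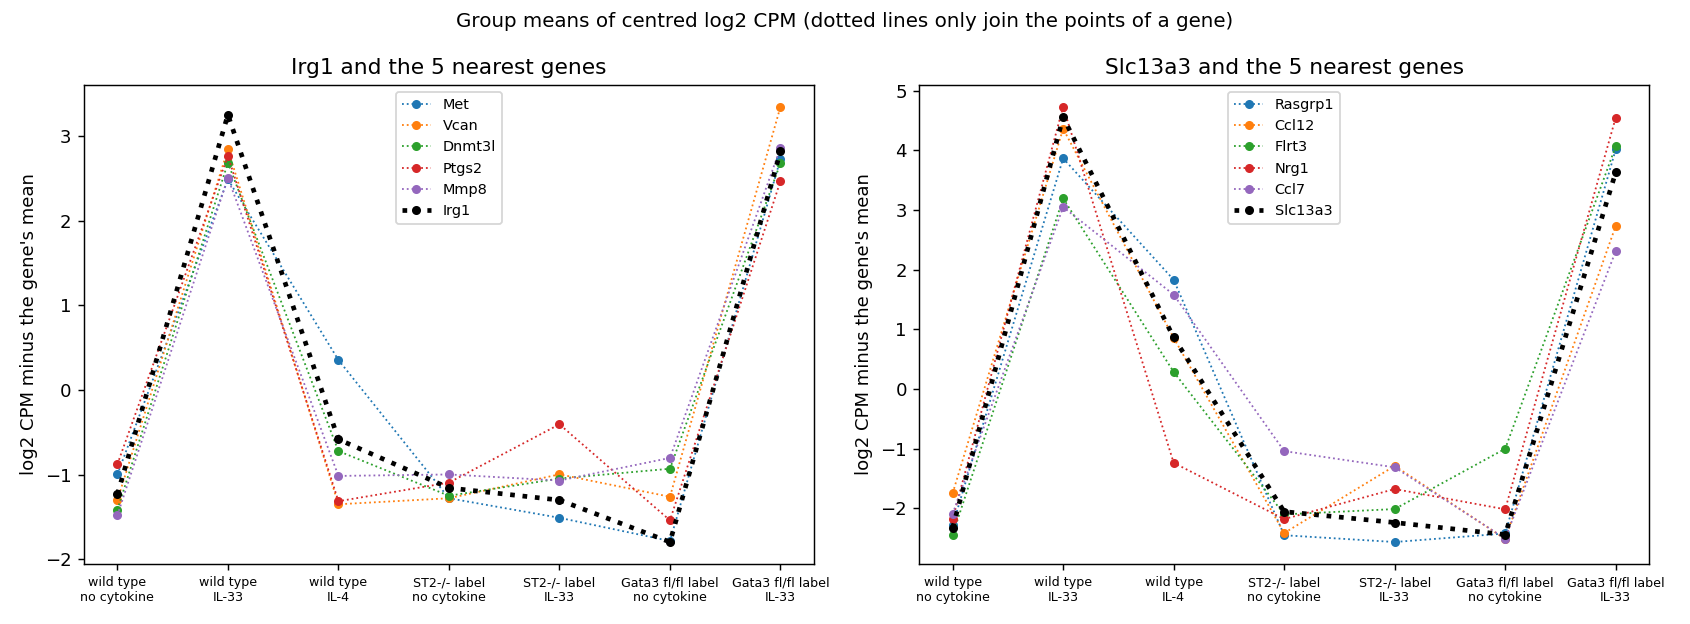
Group means of centred log2 CPM for Irg1 with its 5 nearest profiles and Slc13a3 with its 5 nearest, by group (dotted lines only join the points of a gene). The 2 responding groups given IL-33 are highest for every gene shown. The IL-4 mean of Irg1 (-0.58) lies above its untreated means (-1.80 to -1.16), as does that of Met (0.35), while those of Slc13a3, Rasgrp1 and Ccl7 lie farther above theirs.

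Genes around the 5 members were read as lists by function. Their counts stand beside 35.4% of all tested genes called under IL-33 in wild-type cells (18.5% higher) and 47.6% under IL-4 (25.1% higher), and several lists were near those shares. The list of citrate and cis-aconitate supply, the latter being the substrate of the Irg1 enzyme, held 10 genes. It mixes enzymes that lead to citrate or cis-aconitate with enzymes that use citrate or isocitrate, isocitrate dehydrogenases among them. Its counts therefore give no direction of supply. Of the 10, 7 rose and none fell under IL-33 in wild-type cells, with a median log2 change of 0.18 beside -0.00091 over all tested genes. The largest called changes were those of Idh1, the cytosolic isocitrate dehydrogenase (0.58 ± 0.06), Idh3a, a subunit of the mitochondrial one (0.46 ± 0.10), Cs, citrate synthase (0.32 ± 0.04), and Aco1, the cytosolic aconitase (0.22 ± 0.06). Under upper-quartile scaling, tried after the data were seen, the counts were 5 higher and 1 lower. Under IL-4, 6 rose and 1 fell (median 0.23 beside 0.0048), led by Idh3a (1.18 ± 0.10), Pcx, pyruvate carboxylase (-0.79 ± 0.16), and Aco1 (0.72 ± 0.06). In cells labelled Cx3cr1CRExGata3fl/fl, IL-33 raised 8 of 10 (median 0.22 beside -0.01), where 17.1% of all tested genes were called higher. The count was 5 under upper-quartile scaling.

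Of 10 genes on a list of itaconate breakdown, 2 rose under IL-33 (median 0.08), a share near the 18.5% of all tested genes called higher. They were Clybl, the citramalyl-CoA lyase (0.91 ± 0.15), and Auh, an enoyl-CoA hydratase (0.43 ± 0.07). Clybl went from 9.30 ± 1.57 CPM to 17.5 ± 1.53 CPM, with libraries that did not overlap. Under IL-4, 4 rose and 1 fell (median 0.15), near the 47.6% of all genes called, and the largest were Clybl (1.00 ± 0.15), Auh (0.84 ± 0.07), and the succinyl-CoA ligase subunits Suclg2 (-0.66 ± 0.12) and Suclg1 (0.50 ± 0.06). With RLE or upper-quartile scaling the IL-4 counts of this list were 3 higher and 2 lower. Succinate dehydrogenase, the enzyme itaconate inhibits, had 3 of 8 subunit and assembly genes higher under IL-33 (median 0.12), Sdhd (0.43 ± 0.05), Sdhaf2 (0.26 ± 0.07) and Sdhc (0.21 ± 0.05), and 5 of 8 under IL-4 (median 0.37), where 18.5% and 25.1% of all tested genes were called higher.

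Among 13 other tested mitochondrial carriers of carboxylates, amino acids and phosphate, 3 rose and 1 fell under IL-33 (median 0.14), and 5 rose and 1 fell under IL-4 (median 0.14). Both counts are near the shares of all tested genes called, 35.4% and 47.6%. Slc25a13, an aspartate-glutamate carrier, went opposite ways: untreated cells had 56.5 ± 1.41 CPM, IL-33 libraries 44.2 ± 1.82 and IL-4 libraries 119 ± 6.29. Its log2 changes were -0.36 ± 0.06 and 1.07 ± 0.06, and IL-33 set directly against IL-4 gave -1.43 ± 0.06 (adjusted p = 3.8e-14, edgeR). The other called genes under IL-33 were Slc25a22, a glutamate carrier (0.40 ± 0.07), Slc25a15, the ornithine carrier (0.34 ± 0.09), and Slc25a12, the second aspartate-glutamate carrier (0.29 ± 0.06). The malate-aspartate and malic enzyme genes, which use the malate and 2-oxoglutarate that Slc25a11 moves, had 2 of 6 higher and 2 lower under IL-33, Me2 (0.34 ± 0.08), Mdh2 (0.32 ± 0.05), Got1 (-0.31 ± 0.06) and Mdh1 (-0.15 ± 0.05). The share of all tested genes called was 35.4%. Under IL-4, where it was 47.6%, 4 of 6 rose, Got1 (0.59 ± 0.06) and Mdh1 (0.33 ± 0.05) among them.

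Slc13a2, the other sodium-coupled dicarboxylate transporter of the Slc13 family that could be tested, fell where Slc13a3 rose. Its group means were 2.54 CPM untreated, 1.03 CPM for IL-33 and 0.775 CPM for IL-4, and its log2 values fell by 1.30 and 1.70. Slc13a1 and Slc13a5 held 0 counts in all 7 groups. Abcg2, an efflux transporter, fell by 0.24 under either cytokine, and the receptor genes Oxgr1 and Sucnr1 held 0 and at most 4 counts a group.

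Of 11 genes listed as regulators or targets that itaconate is known to act on, 5 rose and 2 fell under IL-33 (median 0.05), where 35.4% of all tested genes were called. Nqo1 (1.42 ± 0.22), Gclm (1.26 ± 0.08) and Hmox1 (0.71 ± 0.06), 3 targets of the transcription factor NRF2, rose, and Tfeb, a regulator of lysosomal genes, had a change of -0.70 ± 0.07. Gclm had 26.0 ± 0.723 CPM untreated, 62.5 ± 4.20 CPM given IL-33 and 30.1 ± 1.36 CPM given IL-4. Under IL-4, 5 rose and 3 fell (median 0.21, with 47.6% of all genes called), led by Nfkbiz, an inducible regulator of inflammatory genes (-3.10 ± 0.10), Nlrp3, an inflammasome sensor (-1.72 ± 0.07), and Atf3, a stress-induced transcription factor (1.20 ± 0.06). Of 6 genes for delivery of itaconate to vacuoles, 2 rose and 3 fell under IL-33 (median -0.08), Bloc1s3 having the largest change (-0.58 ± 0.06), again with 35.4% of all genes called. Under IL-4, 1 of the 6 rose and 4 fell (median -0.39), where 47.6% of all tested genes were called and 22.5% were called lower.

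None of these list genes was called in ST2-/- cells given IL-33, as for all genes that passed the filter. None of their responses in cells labelled Cx3cr1CRExGata3fl/fl was called as different from wild type, where only 1.22% of all tested genes were. Those cells shared the called direction for Clybl (0.66 ± 0.15), Slc25a13 (-0.52 ± 0.06) and Nqo1 (1.13 ± 0.21), picked for having been named above.

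**Figure D5:**
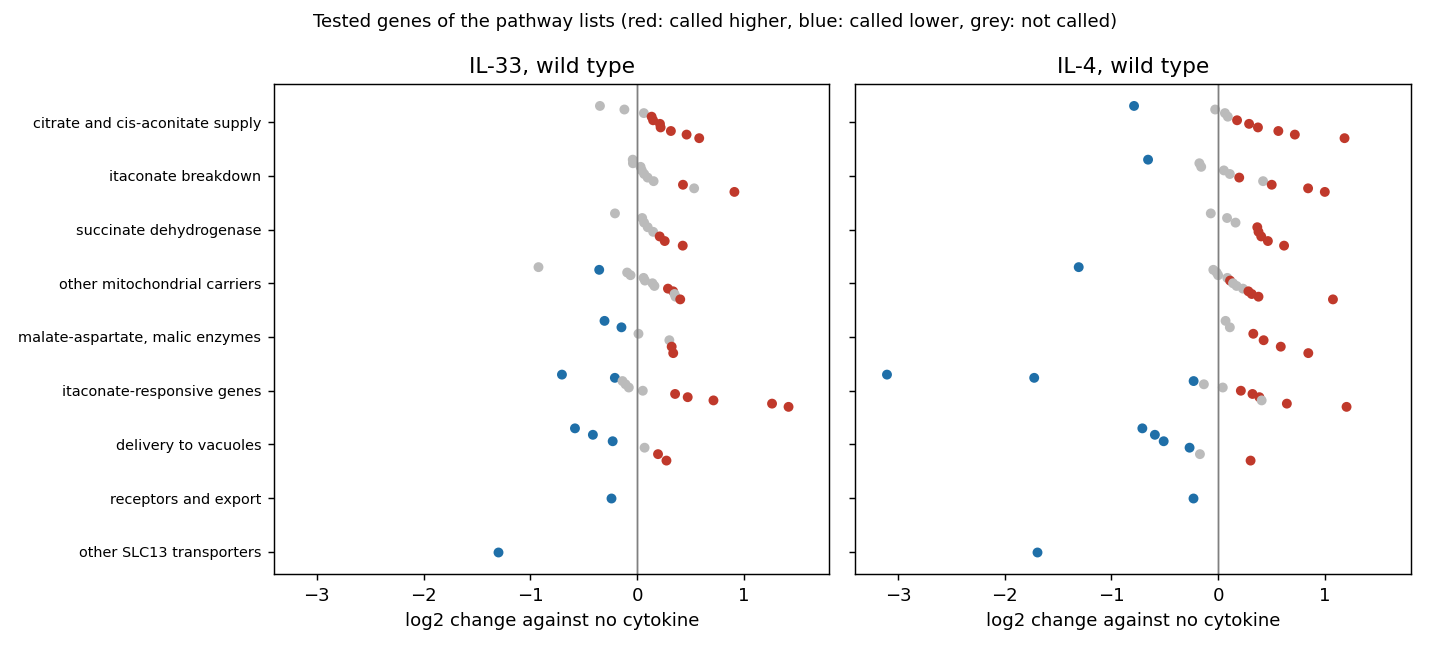
Log2 changes of every tested gene of the pathway lists under IL-33 and under IL-4 in wild-type cells, by list (1 point a gene, red called higher, blue called lower and grey not called by edgeR). Nfkbiz under IL-4 (-3.10) and Nqo1 (1.42) and Gclm (1.26) under IL-33 stand apart within their list.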

How the data were processed

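The values were read counts per gene deposited by the authors as 1 table of 47069 genes and 21 libraries. Alignment and counting tools listed in the submitters' processing notes are HISAT2 2.0.5 and HTSeq 0.6.1, beside DESeq2 1.22.2 and the GRCm38 (mm10) build. Per the labels' protocols, paired reads came from NEBNext Ultra libraries. Annotation and strand setting are not given in the sources used here. No library pair had identical counts.

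Counts were fitted with edgeR 4.0.16 in R 4.3.3 by a quasi-likelihood model with 7 group means, TMM scaling and 14 residual degrees of freedom, on the 14473 genes kept by filterByExpr. P-values were adjusted over all 14473 genes (Benjamini-Hochberg) and genes called under 0.05. The procedure was run on simulated counts with the same spread for every gene, which does not check its calls on genes with a wider spread. Alternatives were RLE and upper-quartile scaling, no filter, DESeq2 1.42.0, limma 3.58.1 (voom), only the compared groups, the replicate number as a block, and each library left out.

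The 5 genes and the gene lists were chosen with earlier results of these data known. Up to 4 genes a list were eligible for naming, those with the largest called change, and not every gene so reached is named in the text. Slc13a1, Slc13a5, Oxgr1 and Sucnr1, and the overlapping genes, were named after their values were seen. Nearest profiles used log2 CPM with a prior count of 2, for members whose group means spanned more than 2 log2 units. Promoter sequences are from RefSeq (GRCm38.p6) and positions from GENCODE M21.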

Additional observations from a re-analysis of the deposited data

Results flagged for a closer look

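The response to IL-33 differed between ST2-/- labelled and wild-type cells for 3 of the 5 genes by an interaction test in edgeR, which called 22.7% of all tested genes. The difference was -4.68 for Irg1, -7.14 for Slc13a3 and -0.26 for Slc25a1 on the log2 scale, all towards a smaller rise in the ST2-/- libraries. The call of Slc25a1 was lost with only the compared groups in the fit (adjusted p = 0.0501) and in each of 4 fits that left out 1 library, untreated wild-type replicate 1, wild-type IL-33 replicate 3 or replicate 3 of either ST2-/- group (adjusted p = 0.0546 to 0.0651). Dixon's test for an outlying library was not run, since groups held 3 libraries.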

How the results depend on the processing

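Of 385 values of the 5 genes under another setting and 390 with 1 library left out, 373 and 346 kept both direction and side of the threshold. The 6 and 36 that changed sign were called neither before nor after. The cause of the changes below was not tested.

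With no filter, Irg1 was called under IL-4 (0.64, adjusted p = 9.6e-07) and between cells labelled Cx3cr1CRExGata3fl/fl and wild type, untreated (-0.57) and with IL-33 (-0.40). That fit also gave 70 called genes for IL-33 in ST2-/- cells (0 otherwise), 555 for the difference between the Cx3cr1CRExGata3fl/fl and wild-type responses (176) and 875 for untreated ST2-/- against wild type (196). DESeq2 gave 384 and 438 for the latter 2, and 0.00071 for Slc25a10 in ST2-/- cells given IL-33, where RLE scaling gave 0.00081. Upper-quartile scaling gave Slc25a11 -0.0036 (wild type, IL-33), -0.0018 (ST2-/-, IL-33), 0.0018 (difference of these responses) and 0.014 (ST2-/- against wild type, both with IL-33). It also took the called genes of IL-33 in Cx3cr1CRExGata3fl/fl cells from 2471 to 2001 higher. With only the compared groups, the ST2-/- difference in response of Slc25a1 was -0.26 and not called.

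The deviations of same-numbered libraries had a mean correlation of 0.0296 with 2 of 63 pairs over 0.1, against -0.0148 with 0 of 126 over 0.1 for other pairs, and 18 of 21 libraries correlated best with their own number. With a replicate block, Irg1 under IL-4 was called (0.67, adjusted p = 0.0249), as was Slc25a10 between ST2-/- and wild type with IL-33 (-0.15), and the counts of 176 and 196 became 355 and 590.

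With 1 library left out at a time, the ranges were as follows. Wild-type cells given IL-33 had -0.085 to 0.015 for Slc25a10 and -0.0080 to 0.062 for Slc25a11, and IL-4 had 0.45 to 0.90 for Irg1. IL-33 in ST2-/- cells had -0.48 to 0.19 for Irg1, -0.53 to 0.077 for Slc13a3, -0.025 to 0.064 for Slc25a1, -0.053 to 0.046 for Slc25a10 and -0.019 to 0.038 for Slc25a11. IL-33 in Cx3cr1CRExGata3fl/fl cells had -0.068 to 0.0020 for Slc25a11. The ST2-/- difference in response had -0.29 to -0.20 for Slc25a1, -0.032 to 0.083 for Slc25a10 and -0.064 to 0.015 for Slc25a11. The Cx3cr1CRExGata3fl/fl difference had 52 called genes (without its IL-33 replicate 3) to 273 (without wild-type IL-33 replicate 1) and 54 to 112 without untreated wild-type replicate 1 or 3, wild-type IL-33 replicate 2 or 3, Cx3cr1CRExGata3fl/fl IL-33 replicate 1 or any of its 3 untreated libraries, -0.064 to 0.37 for Irg1 and -0.095 to 0.022 for Slc25a10. Untreated ST2-/- against wild type had 54 to 208 called genes (64 and 54 without wild-type replicates 1 and 3, 65 and 98 without ST2-/- replicates 2 and 3), -0.24 to 0.43 for Irg1, -0.0069 to 0.076 for Slc25a1 and -0.036 to 0.033 for Slc25a11. Untreated Cx3cr1CRExGata3fl/fl against wild type had 658 (without its replicate 2) to 1239 called genes, of 1425 with all (784 and 810 without wild-type replicates 1 and 3), -0.40 to 0.13 for Slc13a3 and -0.067 to 0.020 for Slc25a11. With IL-33 these had 1004 (without wild-type replicate 2; 1092 without Cx3cr1CRExGata3fl/fl replicate 3) to 1458 called genes, of 1642, and -1.26 to -0.73 for Slc13a3. ST2-/- against wild type with IL-33 had -0.19 to -0.10 for Slc25a10 and -0.057 to 0.0093 for Slc25a11.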
